A study of Mus musculus with 1183 samples.

Results

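Expression of 8 genes of pericellular proteolysis was followed across immune cells of the hyperoxic newborn mouse lung: the matrix metalloproteinases Mmp8, Mmp9, Mmp12, Mmp14 and Mmp19, the inhibitors Timp1 and Timp2, and the related membrane protease Adam8. They were taken by symbol from a count table of 18072 genes, and all 8 were found. Each was described per labelled subtype, per animal and per cell.

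The data were read counts of 1183 single cells of distal lung, 598 from 1 female mouse and 585 from 1 male, both at postnatal day 7 and kept in hyperoxia, a raised oxygen level. Of these, 1173 had passed a gate for the leukocyte protein CD45 and 10 came from gates named mesench and CD31; cells lay in plates and the labels name Tn5, a transposase that cuts and tags DNA for sequencing. The labels divide the cells into 16 subtypes, among them neutrophils, macrophages numbered Mac I to Mac V and dendritic cells numbered DC I to DC III. Sex and animal cannot be told apart with 1 animal of each, strain and oxygen dose are not given in the sources used here, and lungs kept in room air were not analysed here, so no value is an effect of hyperoxia. In every pair of values that follows, the female is given first and the male second.

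Matrix metalloproteinases are zinc enzymes that cut collagen, elastin and other matrix proteins, and are made as inactive proenzymes. The tissue inhibitors of metalloproteinases (TIMPs) block their active site, and TIMP2 also takes part with MMP14 in activating pro-MMP2 at the cell surface. Neutrophils store MMP8 and MMP9 in granules, and macrophages are the known source of the elastase MMP12.

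RefSeq promoters (build GRCm38.p6) were found for 6 of the 8 members and not for Mmp9 and Mmp19. The 250 bases before the start are shown for 4 members that led in different cells (a granule enzyme, a macrophage elastase, an inhibitor and Adam8). Capitals mark matches on either strand to 5 motifs: TGANTCA (AP-1), GGAAGT (the ETS and PU.1 core), TTNCNNAA (C/EBP), GGGCGG (the GC box) and TATAAA (the TATA box). No match overlapped another in these 4 windows.
Mmp8, chr9:7558179-7558428, plus strand: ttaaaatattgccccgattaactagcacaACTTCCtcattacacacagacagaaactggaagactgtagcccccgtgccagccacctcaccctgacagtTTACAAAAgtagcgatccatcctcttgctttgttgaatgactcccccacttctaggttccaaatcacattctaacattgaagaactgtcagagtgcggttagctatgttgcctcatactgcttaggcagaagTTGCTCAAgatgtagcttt
Mmp12, its second start, chr9:7347124-7347373, plus strand: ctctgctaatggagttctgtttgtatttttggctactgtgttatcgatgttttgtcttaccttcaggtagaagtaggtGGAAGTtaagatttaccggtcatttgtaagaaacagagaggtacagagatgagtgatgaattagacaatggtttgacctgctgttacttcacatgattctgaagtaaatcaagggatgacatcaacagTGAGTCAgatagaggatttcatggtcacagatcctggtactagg
Timp2, chr11:118355412-118355661, minus strand: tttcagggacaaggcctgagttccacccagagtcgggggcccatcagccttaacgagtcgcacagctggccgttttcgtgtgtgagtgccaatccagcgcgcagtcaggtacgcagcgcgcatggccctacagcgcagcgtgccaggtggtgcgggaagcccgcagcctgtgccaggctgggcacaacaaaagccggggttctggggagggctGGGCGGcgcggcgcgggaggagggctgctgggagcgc
Adam8, chr7:139992563-139992812, minus strand: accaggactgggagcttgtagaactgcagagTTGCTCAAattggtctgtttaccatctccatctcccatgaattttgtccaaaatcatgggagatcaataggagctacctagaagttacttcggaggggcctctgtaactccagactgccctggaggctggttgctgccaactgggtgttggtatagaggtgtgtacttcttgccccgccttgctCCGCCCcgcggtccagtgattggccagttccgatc
The Mmp8 window held 1 ETS and PU.1 core and 2 C/EBP matches, the nearer of them 19 to 12 bases before the start. At the second start of Mmp12 an AP-1 match lay 44 to 38 bases before the start, with 1 ETS and PU.1 core further up. The first start of Mmp12, not printed, held no AP-1 match in its window but 2 ETS and PU.1 cores and 2 C/EBP matches, the nearest of each side by side at 45 to 40 and 39 to 32 bases before the start; which start these cells use was not tested. Timp2 had 1 GC box, 37 to 32 bases before the start, and Adam8 had 1 C/EBP match and 1 GC box. Among 32841 promoter windows of this length, 6.75% held the AP-1 letters, 19.7% the ETS and PU.1 core, 36.9% the C/EBP letters, 32.7% a GC box and 12.4% a TATA box. A match describes letters, not a bound site. The bases just after the start were found in a GENCODE transcript of the same gene for the second Mmp12 start, Timp2 and Adam8. They were not found for Mmp8 and the first Mmp12 start, so distances there rest on the RefSeq start alone.

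Depth ran from 16753 to 7560179 reads per cell with a median of 1100966, and neutrophils were the shallowest subtype (median 589006 reads). Labels were checked against 4 markers each: all 4 were highest in their own subtype for neutrophil, Mac III, DC I, basophil, mast cell, B cell, T cell and NK cell, 3 of 4 for Mac V, DC II and DC III, 2 of 4 for IL cell and 1 of 4 for Mac II. In Mac IV, C1qa, C1qb and C1qc were highest. Levels are given as CPM, reads of a gene per 1000000 reads of the summed cells of 1 subtype and animal. Genes taken as markers of other cells were also summed. The 4 fibroblast genes reached 76.1 CPM at most and the 4 endothelial genes (Cdh5, Pecam1, Cldn5 and Kdr) 581 CPM. The 4 epithelial genes reached 10785 CPM and the 3 erythroid genes 5135 CPM. Whether leukocytes express some of these genes themselves, such as Pecam1, was not tested, so a cell that holds them need not be of another type. The titles carry the code DC28 for the first CD45 plate of the female and DC35 for the 3 other CD45 plates. These codes are taken here as sequencing runs, which the titles do not state. In summed libraries, fewer cells with a message and less message per cell cannot be told apart, so shares of cells stand beside levels.

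The members divided by cell type across the 15 subtypes with at least 5 cells per animal. Neutrophils held 98.5% of all Mmp9 reads and 89.8% of all Mmp8 reads. Mac III held 82.3% of the reads of Mmp19, and Mac IV 64.6% of those of Mmp14 and 57.1% of those of Timp2. Mmp12 was spread over macrophages and DC II, and Adam8 over neutrophils, basophils and dendritic cells. Timp1 had 2327 reads, in 18 cells.

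**Figure D1:**
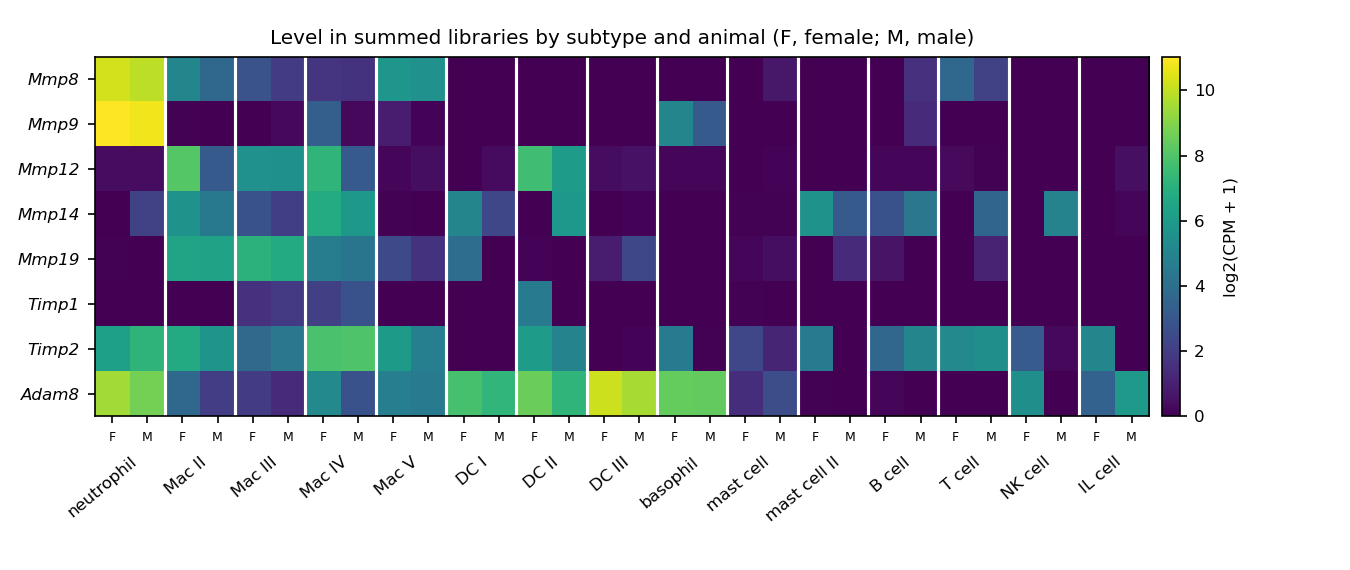
Level of each member, log2(CPM + 1), in the summed library of every subtype with at least 5 cells per animal; columns are subtypes, each with the female (F) and the male (M). Mmp8 and Mmp9 are brightest in neutrophils, Mmp19 in Mac III, Timp2 and Mmp14 in Mac IV, and Adam8 in DC III and neutrophils.

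Mmp8, the neutrophil collagenase, stood at 1236 and 963 CPM in neutrophils. Mac V was next at 53.7 and 47.3 CPM, and Mac II followed at 32.3 and 11.7 CPM. Both animals of neutrophils lay above both of Mac V, and those of Mac V above both of Mac II. T cells stood at 11.7 and 3.54 CPM, from 1 cell in each animal, and overlapped with Mac II and Mac III. Mac III had 6.01 and 2.91 CPM and Mac IV 2.25 and 2.08 CPM. There was no read of Mmp8 in DC II, DC III, IL cell, NK cell and mast cell II.

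Each cell was then thinned to 100000 reads and counted as holding a gene at 2 reads or more. Mmp8 was held by 27 of 55 cells (49.1%, exact interval 35.4% to 62.9%) and 44 of 78 cells (56.4%, exact interval 44.7% to 67.6%) in neutrophils. The shares in Mac V were 14 of 66 cells (21.2%, exact interval 12.1% to 33.02%) and 12 of 44 cells (27.3%, exact interval 14.96% to 42.8%). Among B and T cells, which should lack the gene, 2 of 110 held it (1.82%); their median depth was 1246893 reads, against 589006 in neutrophils and 1041661 in Mac V. Neutrophils of the female had 2038 CPM on the first CD45 plate, where 1 cell gave 40.5% of the reads, and 556 CPM on the second. Those of the male had 909 and 1027 CPM, closer together.

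Mmp9, gelatinase B, stood at 2084 and 1753 CPM in neutrophils. Basophils came next at 32.8 and 7.62 CPM, and both animals of neutrophils lay above them. The basophil reads came mainly from 3 cells with at least 20 CPM. Basophils also held the 3 erythroid markers at 1711 and 0 CPM, the 4 epithelial markers at 373.7 and 287.2 CPM and the 4 endothelial markers at 141.5 and 336.4 CPM. Without the 27 of 34 and 16 of 19 basophils in which such markers, fibroblast genes included, together reached 50 CPM, Mmp9 stood at 0 and 0.297 CPM. This step took out most basophils, and the Mmp9 reads came mainly from 3 cells. Whether Mmp9 went with the markers was not tested. Mac IV had 9.08 and 0.195 CPM, and 1 cell gave 97.2% of those reads. Below neutrophils, each subtype overlapped with the next in the order. There was no read of Mmp9 in DC I, DC II, DC III, IL cell, NK cell, T cell, mast cell and mast cell II.

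Nearly every neutrophil carried Mmp9. The shares were 51 of 55 cells (92.7%, exact interval 82.4% to 97.98%) and 71 of 78 cells (91.03%, exact interval 82.4% to 96.3%), against 0 of 110 B and T cells, which allows a share of up to 2.73%. Of the neutrophils with Mmp8, 26 of 27 and 44 of 44 also held Mmp9. Another 25 and 27 cells held Mmp9 without Mmp8.

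Mac V cells carried Mmp8 with almost no Mmp9. Neutrophils had 1.69 and 1.82 reads of Mmp9 per read of Mmp8, and Mac V had 0.0158 and 0.00184. At 20 CPM before thinning, 13 of 66 and 11 of 45 Mac V cells held Mmp8 alone, and 0 held both. Of the 4 neutrophil markers, Retnlg was at 0 and 0.0217 CPM in Mac V, against 4399.9 and 5374 CPM in neutrophils. S100a9 had 25.6 and 69.4 CPM in Mac V and 31900.5 and 38408 CPM in neutrophils, and Csf3r had 199.5 and 302.9 CPM against 3629 and 1884 CPM. S100a8 stood in Mac V at 0.917% and 1.16% of its neutrophil level, where Mmp8 stood at 4.35% and 4.91%. In Mac II, likewise, 7 of 27 and 3 of 20 cells held Mmp8 alone and 0 held both.

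**Figure D2:**
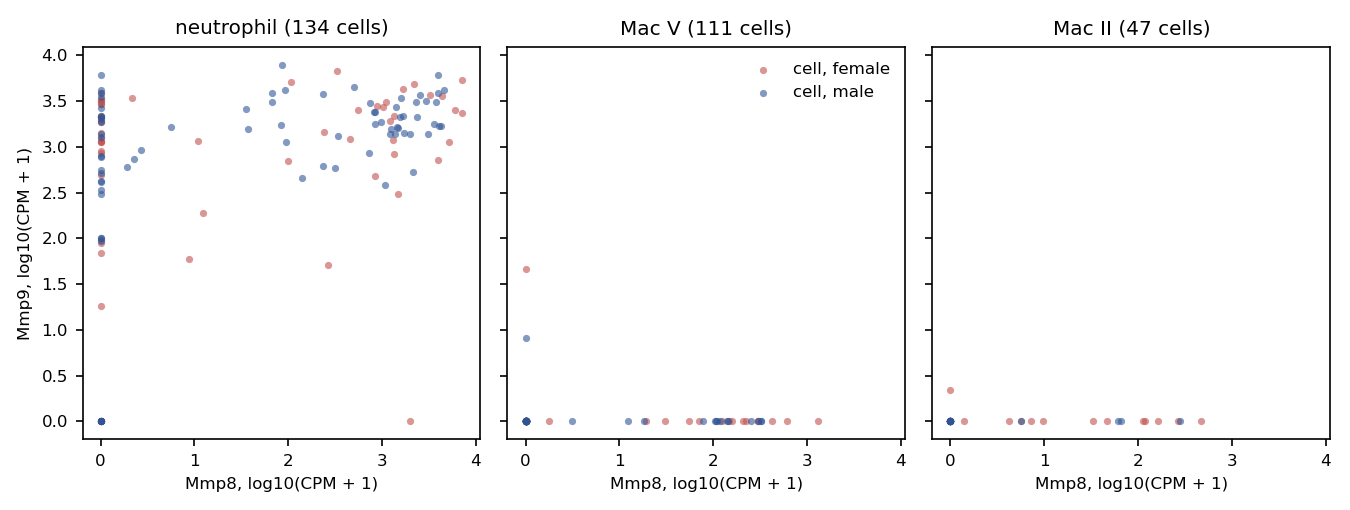
Mmp8 against Mmp9 in single cells, both as log10(CPM + 1), in neutrophils, Mac V and Mac II; each point is a cell, coloured by animal. Most neutrophils carry Mmp9, with or without Mmp8, while the Mac V and Mac II cells with Mmp8 have no or almost no Mmp9.

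Within Mac V, most Mmp8 reads lay in cells that held Ly6c2, a marker of classical monocytes, at 50 CPM or more and Ace, a marker of non-classical monocytes, under it. These 24 and 23 cells had 99.9 and 82.7 CPM of Mmp8 and no read of Mmp9. The 33 and 14 cells with Ace and without Ly6c2 had 6.22 and 0 CPM of Mmp8. Median depth was 1393046 and 1135486 reads in the former and 969700 and 659078 in the latter, and neither the difference nor the part of depth in it was tested.

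Neutrophils were also divided by Ngp, a granule protein made early in their maturation. The 9 and 20 cells with at least 50 CPM of Ngp had Mmp8 at 2773 and 2029 CPM, and the other 47 and 58 had 626 and 392 CPM. Mmp9 stood at 2270.5 and 2032 CPM with Ngp and 2011 and 1603 CPM without. Adam8 lay the other way, at 526 and 269.6 CPM with Ngp and 785 and 497 CPM without. These orders of levels were the same in both animals, and none of the differences was tested. The shares of cells at 20 CPM did not follow the levels for Adam8: it was found in 66.7 and 80% of cells with Ngp and 48.9 and 50% of those without. Mmp8 was found in 77.8 and 95% of cells with Ngp and 40.4 and 44.8% of those without. Cells with Ngp were deeper, with medians of 1294747 and 758882 reads against 545341 and 545040.

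Mmp12, macrophage elastase, was closest between the animals in Mac III, the subtype with the alveolar macrophage markers Marco, Car4 and Fabp4, at 46.4 and 45.9 CPM. Mac II stood at 280.95 and 7.73 CPM, DC II at 198.1 and 66.02 CPM and Mac IV at 148.4 and 7.62 CPM. These 4 subtypes overlapped, each with the next in the order, and all others were under 1 CPM. Few cells carried the signal: in Mac IV 1 cell gave 63.3% of the reads and 5 cells 97.01%, and in Mac III 1 cell gave 28.04%. Without the highest cell of each library, Mac III stood at 38.8 and 21.5 CPM, Mac II at 199.2 and 1.047 CPM, DC II at 30.7 and 32.9 CPM and Mac IV at 49.4 and 2.79 CPM. The animals were then closer in DC II than in Mac III.

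Mmp12 was held by 19.3% of cells (exact interval 13.9% to 25.9%) and 17.8% of cells (exact interval 12.8% to 23.7%) in Mac III. In DC II it was held by 3 of 11 and 7 of 14 cells, against 0 of 110 B and T cells, which allows a share of up to 2.73%. DC II also held the 4 fibroblast markers at 76.1 and 67.98 CPM. Without the 3 and 9 DC II cells with 50 CPM of these markers of other cells, Mmp12 stood at 35.1 and 6.77 CPM. The same step left 290.5 and 4.60 CPM in Mac IV and 45.1 and 81.7 CPM in Mac III.

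Mmp19, a secreted enzyme that can cut basement membrane proteins, was highest in Mac III at 134.1 and 104.8 CPM. Mac II followed at 86.7 and 81.1 CPM and Mac IV at 23.7 and 18.4 CPM. The animals of each of these 3 subtypes lay apart from those of the next. In Mac II 1 cell gave 51.5% of the female reads and 36.7% of the male reads, and its 4 CD45 plates ran from 21.4 to 112.2 CPM. Without the highest cell of each library Mac II stood at 44.7 and 55.3 CPM and Mac IV at 15.2 and 12.8 CPM. About as many Mac III cells held it in either animal, 52.5% of cells (exact interval 44.9% to 59.9%) and 49.04% of cells (exact interval 42.1% to 56.04%), against 1 of 110 B and T cells. Over the 4 CD45 plates its Mac III level ran from 96.5 to 172.97 CPM, the highest on the first plate of the female.

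Mac III cells with and without Mmp12 held Mmp19 in like shares. Of cells with Mmp12, 54.3% and 51.4% also held Mmp19, and of cells without it 52.1% and 48.5%. In sparse counts this is a description only.

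Mmp14, the membrane-anchored activator of pro-MMP2, was highest in Mac IV, the subtype with C1qa, C1qb and C1qc, at 109.1 and 58.5 CPM. Mac II followed at 49.6 and 20.8 CPM, below both animals of Mac IV. In Mac II 1 cell gave 54.5% of the female reads and 89.8% of the male reads, and without it the level was 24.02 and 2.28 CPM. Mac III had 5.91 and 3.12 CPM and Mac V 0.0478 and 0 CPM. The gene was held by 21 of 63 cells (33.3%, exact interval 21.95% to 46.3%) and 19 of 79 cells (24.1%, exact interval 15.1% to 34.98%) in Mac IV, against 10 of 110 B and T cells (9.09%, 4.45% to 16.1%). The male B cells alone held it in 6 of 25 cells (24%, exact interval 9.36% to 45.1%), about the share in male Mac IV. Mast cell II held it in 3 of 14 and 2 of 8 cells. Mac II held it in 7 of 27 and 1 of 20 cells and DC I in 4 of 16 and 1 of 24 cells. The exact intervals of female Mac II (11.1% to 46.3%) and female DC I (7.27% to 52.4%) overlapped that of female Mac IV. The share in Mac IV is therefore, in either animal, not read as above those of all other subtypes. In DC II, at 0 and 57.7 CPM, 1 cell gave 98.2% of the reads.

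Timp2, the inhibitor, was highest in the same subtype. Mac IV stood at 229.3 and 254.2 CPM, and its 4 CD45 plates lay between 225.2 and 255.4 CPM. Neutrophils had 73.4 and 142.7 CPM, Mac II 106.7 and 51.4 CPM, DC II 67.7 and 29.8 CPM, Mac V 63.4 and 25.96 CPM and T cells 35.8 and 43.7 CPM. Both animals of Mac IV lay above all of these, which overlapped, each with the next in the order. DC I and DC III were at 0 and 0.0296 CPM and at 0 and 0.0639 CPM.

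Timp2 was held by 48 of 63 cells (76.2%, exact interval 63.8% to 86.02%) and 60 of 79 cells (75.9%, exact interval 65.02% to 84.9%) in Mac IV. In neutrophils the shares were 15 of 55 cells (27.3%, exact interval 16.1% to 40.96%) and 37 of 78 cells (47.4%, exact interval 36.01% to 59.1%). Among B and T cells 19 of 110 held it (17.3%, 10.7% to 25.7%), and the shares in Mac III, 12.7% and 13.5%, were below that. Whether B and T cells express Timp2 was not tested, so their share is not read as background, and Mac III is not read as above it. The female neutrophil share had an interval that overlapped that of B and T cells. Male B cells alone held Timp2 in 7 of 25 cells (28%, exact interval 12.1% to 49.4%). T cells, listed above by level, are part of those 110 cells. Among Mac IV cells with Mmp14, 85.7% and 73.7% held Timp2, and among those without it 71.4% and 76.7%.

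Markers of other cells were present in Mac IV. The 4 fibroblast markers summed to 47.8 and 39.2 CPM, the 4 endothelial markers to 523 and 113.7 CPM and the 3 erythroid markers to 8.72 and 2236 CPM, and no gene of these lists was at 0 in both animals. Without the 28 and 35 Mac IV cells that held 50 CPM of such markers, Timp2 stood at 248.4 and 271.6 CPM and Mmp14 at 118.3 and 53.4 CPM. In neutrophils the erythroid markers summed to 21.4 and 5135 CPM and the endothelial markers to 21.4 and 581 CPM. Without the 7 and 12 neutrophils that held them, Mmp8 stood at 1253 and 1068 CPM, Mmp9 at 2042 and 1939 CPM, Adam8 at 753 and 491 CPM and Timp2 at 78.4 and 120.1 CPM.

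**Figure D3:**
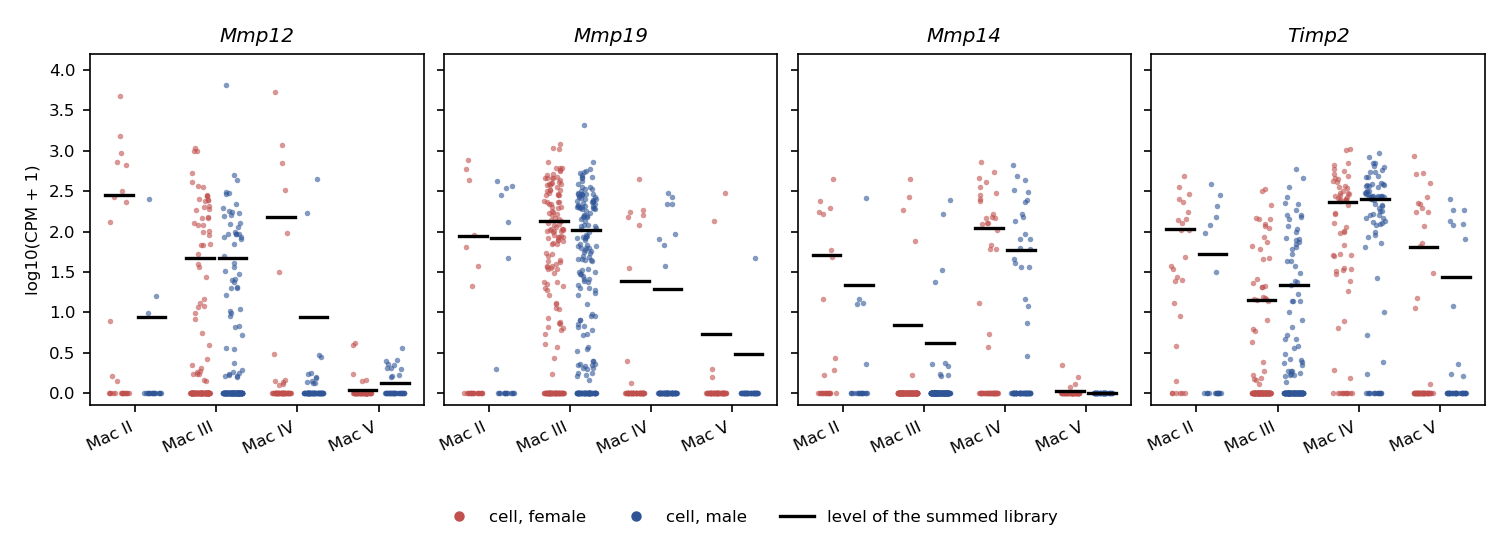
Single-cell levels, log10(CPM + 1), of Mmp12, Mmp19, Mmp14 and Timp2 in the 4 macrophage subtypes Mac II to Mac V; points are cells, coloured by animal, and black bars are the levels of the summed libraries. Mmp19 is carried by many Mac III cells and Timp2 by most Mac IV cells, while Mmp12 rests on few cells in each subtype.

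Timp1, an inhibitor known to be induced by tissue injury, was rarely found. In DC II it stood at 21.7 and 0 CPM, from 1 cell. Mac IV had 3.31 and 5.76 CPM, from 2 and 2 cells, and Mac III 1.94 and 2.70 CPM, from 5 and 5 cells. Both animals of Mac IV lay above those of Mac III, and without the Mac IV cells that held markers of other cells its level there was 0 and 0 CPM. The same step left 1.93 and 0.0300 CPM in Mac III, so the order did not hold. In 9 subtypes there was no read of Timp1.

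Adam8, a membrane metalloprotease with a disintegrin domain, was highest in DC III, the dendritic cells with Ccr7, Fscn1 and Ccl22, at 1174 and 760.2 CPM. Neutrophils followed at 711 and 418 CPM and basophils at 344.8 and 328.2 CPM, and these 3 subtypes did not overlap. By plate, the order of neutrophils and basophils turned on the second CD45 plate of the female and the first of the male. On the first and second plates, neutrophils had 1139 and 348.4 CPM in the female and 403.6 and 428.9 CPM in the male. Basophils there had 274.1 and 383.8 CPM in the female and 416.3 and 226.4 CPM in the male. Without the cells with markers of other cells, DC III stood at 1174 and 693 CPM and neutrophils at 753 and 491 CPM. DC III remained higher within each animal. The male DC III level lay below the female neutrophil level, so the ranges of the animals overlapped. Basophils stood at 206.01 and 207.9 CPM, after the loss of 27 of 34 and 16 of 19 cells. Before that step, DC II had 376.3 and 149.1 CPM and overlapped with basophils and with DC I, at 227.6 and 150.1 CPM. Macrophages were lower: Mac V had 25.5 and 22.3 CPM, Mac IV 35.7 and 5.96 CPM, Mac II 12.4 and 3.06 CPM and Mac III 2.90 and 1.59 CPM. T cells had no read of Adam8.

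Every DC III cell held Adam8 after thinning, 11 of 11 in each animal (exact interval 71.5% to 100%). Basophils held it in 23 of 34 cells (67.6%, exact interval 49.5% to 82.6%) and 16 of 19 cells (84.2%, exact interval 60.4% to 96.6%), and neutrophils in 29 of 55 cells (52.7%, exact interval 38.8% to 66.3%) and 46 of 78 cells (58.97%, exact interval 47.3% to 69.99%). It was held by 0 of 110 B and T cells, which allows a share of up to 2.73%. Cells labelled IL cell had 10.1 and 61.7 CPM and held it in 2 of 9 and 4 of 5 cells, and NK cells in 1 of 5 and 0 of 6. DC III, with 11 cells per animal, was below the 15 set for the fit of 10 subtypes, and its lead over neutrophils was not tested.

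**Figure D4:**
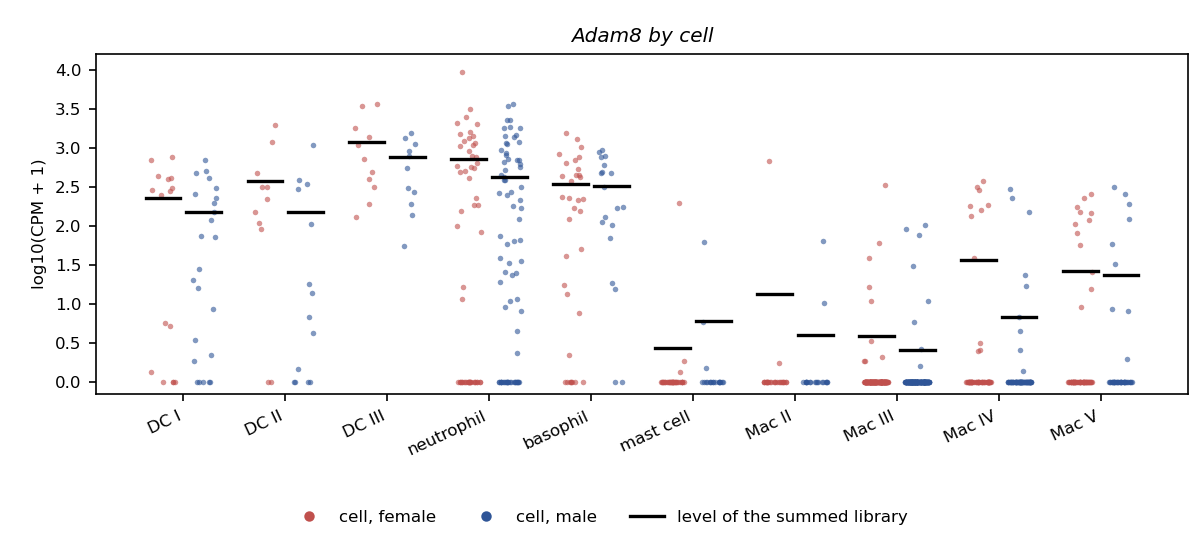
Single-cell levels of Adam8, log10(CPM + 1), in 10 subtypes; points are cells, coloured by animal, and black bars are the levels of the summed libraries. Every DC III cell carries Adam8, neutrophils and basophils hold cells with and without it, and most macrophages are at 0.

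Neutrophils were tested against the 3 largest macrophage subtypes, and these against each other, in 6 comparisons with 2 animals per subtype. The labels probably rest on the expression of these same cells, so a call says how labelled classes differ. The p-values rest on the spread between the 2 libraries of a subtype, 1 per animal, pooled over all subtypes in the fit. That spread also holds the sampling of cells. Genes were called at an adjusted p under 0.05 in edgeR's quasi-likelihood test over all genes, in a fit of the 10 subtypes with at least 15 cells per animal. Of the 48 member tests 9 were called, where 2.23% of all tests were. The count rests on the fit: with all 15 subtypes 4 were called (of all tests 0.684%), in run DC35 alone 2 (1.30%) and with DESeq2 23 (13.5%).

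Neutrophils had higher Mmp8, Mmp9 and Adam8 than Mac III, 3 of 8 members, where 4.66% of all genes were called, 2.42% higher and 2.24% lower in neutrophils. Adam8 was higher by 8.48 ± 1.23 (log2 fold change ± SE, edgeR adjusted p = 0.00144), Mmp8 by 8.44 ± 1.84 (0.0181) and Mmp9 by 14.73 ± 2.88 (0.0150), each in 2 of 2 animals. Mmp12 had 0.284 and 0.305 CPM in neutrophils and was not called (adjusted p = 0.0632). Mmp19 had 2 reads in all neutrophils, a ratio of 5614 between Mac III and neutrophils (counting interval 1554 to 46358), and was not called (0.0645). Both were called in a fit of the 2 subtypes alone (edgeR adjusted p = 0.0321 for Mmp12 and 0.0284 for Mmp19), with DESeq2 and with thinned cells. The members' median log2 fold change was 1.0504, against -0.23 over all genes tested.
Adam8 kept its call without each of the 4 libraries and lost it in run DC35 alone (adjusted p = 0.0524). Mmp8 lost its call in run DC35 (0.115) and without the female neutrophil (0.0579), female Mac III (0.154) or male Mac III library (0.195), and Mmp9 without the female (0.133) or male Mac III library (0.0880).

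Compared with Mac IV, neutrophils had higher Mmp8, Mmp9 and Adam8 and lower Mmp12, 4 of 8 members, where 4.73% of all genes were called, 2.24% higher and 2.48% lower. Mmp8 was higher by 9.52 ± 1.92 (edgeR adjusted p = 0.0119), Adam8 by 5.34 ± 1.07 (0.0129) and Mmp9 by 9.26 ± 2.39 (0.0492). Mmp12 differed by -7.49 ± 2.02 (0.0484), and all 4 kept their direction in 2 of 2 animals. Timp2, at -0.68 ± 1.32, was not called (0.807). The members' median was -2.93, against -0.24 over all genes tested.
Mmp9 and Mmp12 lay close to the threshold. Their adjusted p was 0.0610 and 0.0646 once the animal was entered as a block, 0.0931 and 0.116 with all 15 subtypes, 0.0889 and 0.106 with the 2 subtypes alone, and 0.0537 to 0.209 and 0.0697 to 0.313 without each of the 4 libraries in turn. Without the female Mac IV library, the log2 fold change was 13.74 for Mmp9 and -4.21 for Mmp12. Run DC35 alone gave 0.0831 for Mmp8, 0.118 for Adam8 and 0.0846 for Mmp12. Adam8 also lost its call with all 15 subtypes (0.123), with the 2 subtypes alone (0.0730) and without the female neutrophil (0.0637) or male Mac IV library (0.119), and Mmp8 without the female (0.130) or male Mac IV library (0.130).

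Set against Mac V, neutrophils had higher Mmp9 and Adam8, 2 of 8 members, where 1.32% of all genes were called, 0.416% higher and 0.904% lower. Mmp9 was higher by 12.39 ± 2.68 (edgeR adjusted p = 0.0486) and Adam8 by 5.01 ± 1.053 (0.0352), in 2 of 2 animals. Mmp8, at 4.88 ± 1.56, was not called (0.147), though it was in a fit of the 2 subtypes alone (edgeR adjusted p = 0.0112), with DESeq2 and with thinned cells. The members' median was 3.27, against 0 over all genes tested.
Mmp9 lost its call with the animal as a block (adjusted p = 0.0620), with all 15 subtypes (0.0819), in run DC35 (0.0777) and without the female neutrophil (0.101), female Mac V (0.192) or male Mac V library (0.276). Adam8 lost its call with all 15 subtypes (0.244), in run DC35 (0.300) and without the female neutrophil (0.115), female Mac V (0.222) or male Mac V library (0.243).

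Between the macrophages edgeR's test called no member. For Mac IV against Mac III it called 0 of 8, where 0.754% of all genes passed, 0.501% upwards in Mac IV and 0.254% downwards. With Mac V in place of Mac III it called 0 of 8, where 0.585% of all genes passed, 0.267% upwards in Mac IV and 0.319% downwards. For Mac III against Mac V it called 0 of 8, where 1.34% of all genes passed, 0.436% upwards in Mac III and 0.904% downwards. DESeq2 called 2, 3 and 3 members, where it called 6.51%, 10.3% and 9.76% of all genes. The members' medians were 2.04, against 0 over all genes tested, then 2.86, against 0.07 over all genes tested, and 1.84, against 0.13 over all genes tested.
A fit of only the 2 subtypes compared takes the spread from 4 libraries. In that fit Mac IV had higher Timp2 (3.81 ± 0.34, adjusted p = 0.00407) and Mmp14 (4.19 ± 0.52, adjusted p = 0.00918) and lower Mmp19 (-2.53 ± 0.29, adjusted p = 0.00738) than Mac III, 3 of 8 members, where 11.96% of all genes were called, 6.70% higher and 5.26% lower. Mac IV had higher Mmp14 (11.37 ± 1.16, adjusted p = 0.00839) and lower Mmp8 (-4.61 ± 0.68, adjusted p = 0.0241) than Mac V, 2 of 8, where 4.37% of genes were called, 2.31% higher and 2.07% lower. Mac III had higher Mmp12 (7.73 ± 0.92, adjusted p = 0.0134) and Mmp19 (5.12 ± 0.53, adjusted p = 0.00925) and lower Mmp8 (-3.59 ± 0.57, adjusted p = 0.0278) than Mac V, 3 of 8, where 9.23% of genes were called, 3.99% higher and 5.25% lower. In the fit of 10 subtypes the difference between Mac IV and Mac III was 3.795 ± 1.47 for Timp2 and 4.16 ± 2.47 for Mmp14, with larger errors.

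**Figure D5:**
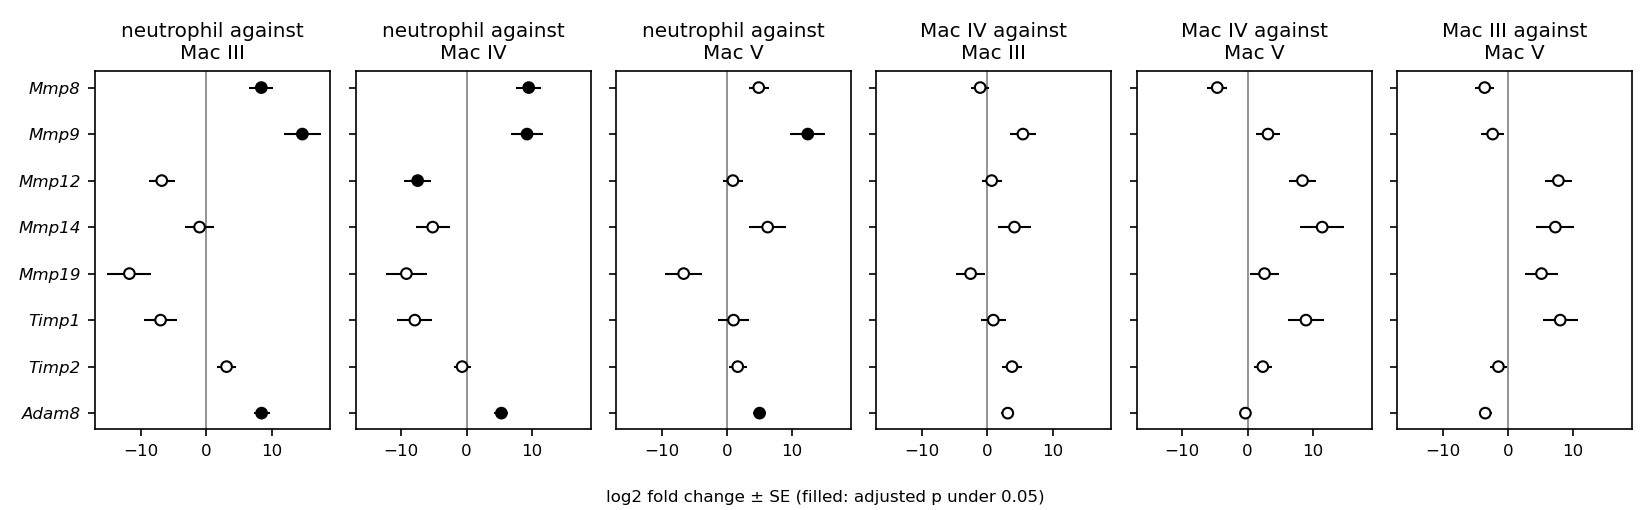
Log2 fold change of each member in the 6 comparisons of the fit of 10 subtypes; the horizontal axis is the first subtype minus the second, bars are the standard error and filled points have an adjusted p under 0.05. Filled points appear in the 3 neutrophil panels and in none of the macrophage panels.

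Other genes of proteolysis came from a list of 46, of which 42 were in the table and 36 were tested. Neutrophils had 3 higher and 1 lower than Mac III, 5 higher and 2 lower than Mac IV, and 1 higher and 1 lower than Mac V, where 4.66%, 4.73% and 1.32% of all genes were called. Mac IV had 1 higher and 0 lower than Mac III, where 0.754% of all genes were called, and the other macrophage comparisons had 0. The list's median log2 fold changes for neutrophils were 0.05, -0.21 and 1.052 against Mac III, Mac IV and Mac V, beside -0.23, -0.24 and 0 over all genes.

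Lcn2, a lipocalin that binds MMP9, stood at 3794 and 5081 CPM in neutrophils and 0.00478 and 0.0212 CPM in Mac III (edgeR adjusted p = 0.0121), and was also called against Mac IV. Slpi, a serine protease inhibitor, had 2079.8 and 2363 CPM in neutrophils and no read in Mac IV, at least 159072-fold higher against 3 reads over Mac IV (0.0126). Adam19, another membrane protease, was higher than in Mac III both in neutrophils (10.32 ± 1.56, adjusted p = 0.00151) and in Mac IV (8.20 ± 1.44, adjusted p = 0.0114). Itgb2, the beta chain of leukocyte integrins, was higher in neutrophils than in Mac IV (2.71 ± 0.66, adjusted p = 0.0317).
Lrp1, a receptor that takes up protease and inhibitor complexes, was lower in neutrophils in all 3 comparisons. It had 20.3 and 16.6 CPM in neutrophils, 538 and 553 CPM in Mac III (-4.39 ± 0.52, adjusted p = 0.000280), 153.9 and 245.2 CPM in Mac IV (-2.91 ± 0.48, adjusted p = 0.00373) and 441 and 448 CPM in Mac V (-4.16 ± 0.51, adjusted p = 0.00134). Bsg, an inducer of metalloproteinases, was lower than in Mac IV (-1.27 ± 0.32, adjusted p = 0.0386). The remaining genes called in the fit of 10 subtypes were Mmp25 and Cd44, named here after their values were seen. Mmp25, a membrane-type enzyme of leukocytes, stood at 128.8 and 47.5 CPM in neutrophils and at most 0.144 CPM in the 3 macrophage subtypes, and was called in all 3 comparisons. Cd44, a receptor for hyaluronan, was higher in neutrophils than in Mac IV (2.43 ± 0.50, adjusted p = 0.0128).

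Genes with a profile most like each member over the 30 summed libraries were taken from 6712 candidates by Pearson's r of log2(CPM + 1), as a description. The libraries share animals and differ in depth. Mmp8 was nearest to S100a8 (0.90), Trem1 (0.90) and Csf3r (0.88), and Mmp9 to Prps1l1 (0.91), Itgb2l (0.91) and Mrgpra2b (0.91). Mmp12 was nearest to Clec4b1 (0.90), Creb5 (0.87) and Mrc1 (0.86), and Mmp19 to Spp1 (0.89), Slc22a17 (0.87) and AU022793 (0.87). Timp2 was nearest to Selenop (0.81), Cybb (0.78) and Itgb5 (0.77), and Timp1 to Fcrls (0.75), Rab3il1 (0.71) and Mgl2 (0.70). Timp1 had reads in 18 cells, and its highest level, in DC II, came from 1 cell, so its correlations rest on few cells. Mmp14 was nearest to Tmem37 (0.70), Snx3 (0.68) and C1qa (0.68), and Adam8 to Zfp36 (0.74), Jak2 (0.74) and Il15 (0.73).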

How the data were processed

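Reads were counted in 1183 single cells of 2 mice. The cells were grouped by the subtype, animal and plate named in the labels, and by the code taken as the sequencing run. The deposited table held unnormalized counts of reads for each gene in each cell; per the submitters' processing notes the tools were STAR 2.5.2b and HTSeq 0.10 and the build GRCh38, a human build for mouse cells, so no coordinates were taken from the table. How reads of overlapping genes and of either strand were counted is not given in the sources used here. The labels name no molecular identifiers, so intervals and limits cover counting error only.

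The members, gene lists and rules were chosen with earlier results of these data known. A further marker of Mac IV is not reported here. Counts were summed per animal and subtype; CPM is the summed count per 1000000 reads, without normalization factors. The edgeR 4.0.16 quasi-likelihood F test (R 4.3.3, TMM, filterByExpr) was fitted to the 20 libraries of 10 subtypes, those with 15 cells or more per animal. A gene was called when its p, adjusted by Benjamini-Hochberg over 15379 genes, was under 0.05. This fit was chosen with earlier results known. Standard errors were taken from the F statistic. The scripts were tested on simulated data. Shares of cells rest on cells thinned at random to 100000 reads, with 5 shallower cells left out, and count a cell with at least 2 reads; intervals are exact Clopper-Pearson at 95%. A count of 0 was given the limit that 3 counts set. From the pathway list up to 3 called genes per direction and comparison were named, by fold, with at least 50 CPM in both libraries of the higher subtype; from all genes with 50 CPM in both animals of a subtype, the 3 with the highest correlation to each member, leaving out unnamed models. No doublet caller was run, and wells that held more than 1 cell, or material of another cell, were not tested for. Male B cells had S100a8 at 1264 CPM, and 1 cell gave 95.3% of their Mmp8 reads. Libraries of the same animal were compared by the correlation of their deviations from the subtype means, which ran from -0.0311 to 0.0779 over 6 pairs; the pairing itself comes from the animal named in the labels. Alternatives were RLE factors, no filter, DESeq2 1.42.0, all 15 subtypes, only the 2 subtypes compared, the animal as a block, 1 sequencing run, thinned cells and each library left out; levels without cells that hold markers of other cell types, and without the highest cell, were added after seeing the data.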

Additional observations from a re-analysis of the deposited data

Results flagged for a closer look

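Between Mac IV and Mac III, Mmp12 lay in opposite directions in the 2 animals. Mac IV minus Mac III was 1.66 for the female and -2.44 for the male on the log2(CPM + 1) scale, and this difference was not tested, since each sex has 1 animal. Among the Mac IV reads of Mmp12 of the female, 67.3% came from 1 cell. Without the highest cell of each library, Mac IV had 49.4 and 2.79 CPM and Mac III 38.8 and 21.5 CPM, female first.

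The only cell labelled Mac I, from the male, entered no comparison. It held Mmp8 at 110.2 CPM, Mmp14 at 17.6 CPM, Timp2 at 161.9 CPM and Adam8 at 70.1 CPM, each above the 1.23 CPM that 3 reads would give in that cell, and 0 reads of Mmp9, Mmp12, Mmp19 and Timp1.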

How the results depend on the processing

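Shares of genes called are given for neutrophil against Mac III, Mac IV and Mac V, Mac IV against Mac III and Mac V, and Mac III against Mac V, in that order. The fit of 10 subtypes called 4.66%, 4.73%, 1.32%, 0.754%, 0.585% and 1.34%. The animal as a replicate block, with pairs taken from the same animal, called 5.13%, 5.32%, 1.68%, 0.923%, 0.715% and 1.55%; it ended the calls of Mmp9 and Mmp12 against Mac IV and of Mmp9 against Mac V, and no other call of a member. DESeq2 called 19.4%, 19.8%, 15.1%, 6.51%, 10.3% and 9.76%, all 15 subtypes 1.41%, 1.42%, 0.404%, 0.263%, 0.167% and 0.442%, thinned cells 10.3%, 10.6%, 3.66%, 2.38%, 1.82% and 3.36%, the 2 subtypes alone 5.37%, 2.46%, 0.846%, 11.96%, 4.37% and 9.23%, and run DC35 alone 2.68%, 2.49%, 0.556%, 0.676%, 0.429% and 0.951%. Leaving out 1 library gave 1.16% to 6.18%, 1.002% to 6.46%, 0.401% to 3.398%, 0.104% to 0.372%, 0.0668% to 0.0977% and 0.256% to 0.425%. RLE factors and no filter kept each count of calls within 1.5 times; RLE moved the share higher in neutrophils from 31.5% to 42.99% of the calls against Mac V, and the share higher in Mac IV from 45.6% to 55.6% of those against Mac V. RLE factors also shifted the median log2 fold change of all genes by 0.003 to 0.21, and no member's direction.

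No member call changed direction. The log2 fold changes that did, none of them called, are given first as fitted and then under the alternatives. For neutrophil against Mac V, Mmp12 was 0.92, -0.25 with thinned cells. For neutrophil against Mac V, Mmp14 was 6.24, -3.96 to 10.11 with 1 library left out (turned without the male neutrophil library). For neutrophil against Mac V, Timp1 was 1.02, 0 in run DC35 and -2.26 to 3.24 with 1 library left out (turned without the female neutrophil library). For Mac IV against Mac III, Mmp12 was 0.68, -0.52 in run DC35 and -2.62 to 1.597 with 1 library left out (turned without the female Mac IV library). For Mac IV against Mac V, Mmp9 was 3.12, -2.82 in run DC35 and -1.35 to 5.63 with 1 library left out (turned without the female Mac IV library). For Mac IV against Mac V, Adam8 was -0.33, -2.05 to 0.44 with 1 library left out (turned without the male Mac IV library). For Mac III against Mac V, Mmp9 was -2.34, -5.39 to 0.16 with 1 library left out (turned without the female Mac V library). The causes were not tested. Thinned cells gave no value for Timp1, and the fit of neutrophil and Mac V alone none for Mmp14 and Timp1. With 2 animals, a left-out library leaves 1 sample in a subtype, which is then assumed to vary like the others. Of the mean levels, 26 moved by more than the spread of the animals on the first CD45 plates and 94 did not, and 21 and 99 on the second.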
